A study of Mus musculus with 4 samples.

Results

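The genes described here are 51 genes of DNA replication and the cell cycle, chosen by name from the mouse arrays of the study, which carry 37074 gene names in all. They comprise 22 replication genes, 23 mitosis genes and 6 regulators of the step from G1 into S phase, and 94 probes read them. A member was represented by its brightest probe over the 4 arrays. For 50 of the 51 genes that probe was well above background on all 4 arrays. The exception was Ccne2, an E-type cyclin, whose only probe was not well above background on any array and which has no fold change here.

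The study compared RNA of the small intestine between DAO genotypes and between tissues on 1-colour Agilent arrays. DAO is D-amino acid oxidase, an enzyme that breaks down D-amino acids and releases hydrogen peroxide, and G181R is known as a substitution that takes away nearly all enzyme activity. The 4 groups, G181R ileum, wild-type ileum, G181R jejunum and wild-type jejunum, had 1 array each. Each array held RNA pooled from 5 mice of 9 weeks. All mice were C57BL/6J and Tcrbd-/-, a deletion of T cell receptor genes that the wild-type DAO mice carried too, and they were DAO G181R/G181R or DAO wt/wt. The epithelium had been scraped off mechanically, so tissue beneath it could enter a sample. With 1 pool per group there is no spread between animals and no test. The error that can be given is the spread of repeated spots of a probe on the same arrays, and it covers neither mice nor pools. The SD of the spots used below is the median over repeated probes, 0.06 for a log2 difference. Between genotypes, the 95th percentile of that SD was 0.12 in ileum and 0.11 in jejunum.

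The intestinal epithelium is renewed without pause by cells that divide in the crypts and stop dividing as they move onto the villi. D- and E-type cyclins with their kinases release E2F factors from the retinoblastoma proteins, and E2F factors switch on the genes that license and copy DNA. Genes of G2 and mitosis peak later and are known to be driven through CCAAT boxes, bound by NF-Y, and through a short element called CHR, bound by the MuvB complexes that also contain B-MYB and FOXM1.

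Promoter sequences are given for both classes, since the replication genes are set against the mitosis genes throughout. The RefSeq promoter table for GRCm38.p6 holds a window of 300 bases, from 250 before to 50 after the transcript start, for 39 of the 51 members and for 27025 genes in all. E2F words (TTTCCCGC, TTTCGCGC, TTTGCCGC or TTTGGCGC on either strand) were present in 7 of 18 replication windows, 1 of 17 mitosis windows and 2.32% of all windows. The CHR word TTTGAA, on either strand, was present in 3 of 18 replication windows, 12 of 17 mitosis windows and 18.1% of all windows. CCAAT, on either strand, was present in 12 of 18 replication windows, 15 of 17 mitosis windows and 37.9% of all windows. Cdk1 was the 1 mitosis gene with an E2F word, and it had CHR words as well. The following are the 160 bases before the start of 8 members whose values are described further on, 5′ to 3′ on the strand of the gene, from RefSeq for GRCm38.p6, with E2F, CHR and CCAAT words in capitals. Pairs of E2F words overlap in Mcm5 and in Mcm6.
Mcm5, chr8:75109349-75109508, plus strand: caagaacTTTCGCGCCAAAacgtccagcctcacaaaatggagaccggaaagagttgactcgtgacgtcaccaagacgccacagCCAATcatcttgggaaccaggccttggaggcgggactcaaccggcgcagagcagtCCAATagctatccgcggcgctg
Mcm6, chr1:128359706-128359865, minus strand: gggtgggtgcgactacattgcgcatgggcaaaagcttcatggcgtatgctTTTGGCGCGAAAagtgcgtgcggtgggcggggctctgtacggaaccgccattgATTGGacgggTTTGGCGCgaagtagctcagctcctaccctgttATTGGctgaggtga
Cdc6, chr11:98907991-98908150, plus strand: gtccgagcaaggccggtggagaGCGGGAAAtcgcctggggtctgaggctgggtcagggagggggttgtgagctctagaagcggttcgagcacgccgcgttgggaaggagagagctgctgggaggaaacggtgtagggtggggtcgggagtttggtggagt
Pcna, chr2:132253181-132253340, minus strand: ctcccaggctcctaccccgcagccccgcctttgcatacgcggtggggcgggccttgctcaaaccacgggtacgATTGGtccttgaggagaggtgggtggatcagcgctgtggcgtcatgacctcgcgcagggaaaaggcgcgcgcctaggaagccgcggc
Cdk1, chr10:69352913-69353072, minus strand: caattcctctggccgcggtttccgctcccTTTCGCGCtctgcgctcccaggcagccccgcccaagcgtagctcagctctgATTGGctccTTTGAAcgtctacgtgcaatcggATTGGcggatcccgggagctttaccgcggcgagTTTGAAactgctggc
Cdc20, chr4:118437344-118437503, minus strand: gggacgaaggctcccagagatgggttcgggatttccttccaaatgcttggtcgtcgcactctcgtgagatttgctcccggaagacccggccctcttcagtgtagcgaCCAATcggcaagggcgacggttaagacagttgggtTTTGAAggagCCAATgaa
Top2a, chr11:99024190-99024349, minus strand: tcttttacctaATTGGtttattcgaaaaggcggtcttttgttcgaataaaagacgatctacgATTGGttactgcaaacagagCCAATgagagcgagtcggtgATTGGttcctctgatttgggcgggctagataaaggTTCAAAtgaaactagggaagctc
Mki67, chr7:135716380-135716539, minus strand: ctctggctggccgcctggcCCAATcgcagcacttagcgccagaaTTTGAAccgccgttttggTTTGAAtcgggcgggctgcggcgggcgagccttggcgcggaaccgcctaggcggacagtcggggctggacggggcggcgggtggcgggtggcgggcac
Mcm5 and Mcm6 show E2F words and CCAAT boxes upstream, Cdc6 a single E2F word alone, and Pcna a CCAAT box alone. Cdc20, Top2a and Mki67 show CHR words with CCAAT boxes, and Cdk1 shows all 3 kinds. A match of letters is a description of the window and not evidence of binding.

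**Figure D1:**
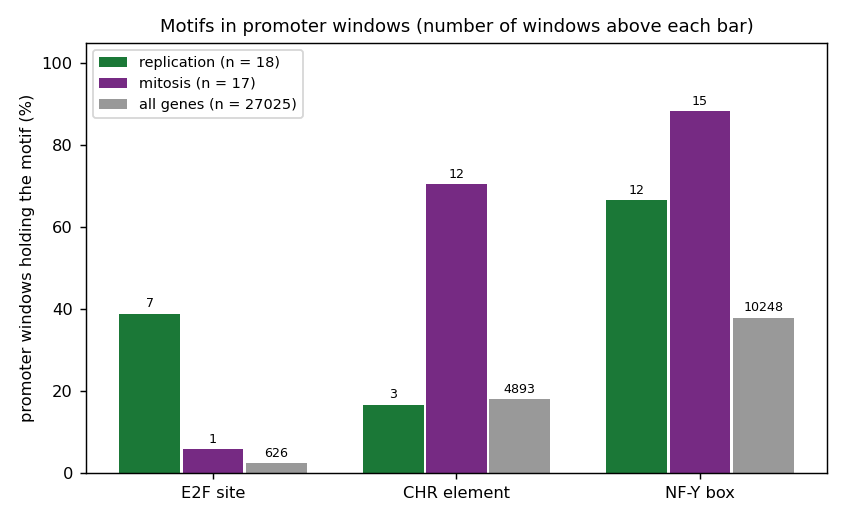
Share of promoter windows (vertical axis, %) that hold an E2F word, a CHR word or a CCAAT box (labelled NF-Y box), for the replication genes, the mitosis genes and all genes with a window. E2F words are seen in 7 of 18 replication windows and 1 of 17 mitosis windows, and CHR words in 3 and 12 of them.

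The arrays were close in quality. Probes well above background numbered 34080 in G181R ileum, 33543 in wild-type ileum, 34187 in G181R jejunum and 32505 in wild-type jejunum, of 56605, and no spot was saturated. Processed signals are quoted as the scanner software gave them, while each log2 difference is taken after dividing by the 75th percentile of the array, which was 175.1 in G181R ileum, 184.8 in wild-type ileum, 159.7 in G181R jejunum and 156.1 in wild-type jejunum. All 7 epithelium markers were well above background on every array. Lct, the lactase of proximal enterocytes, had signals of 133.9 in G181R ileum and 90.6 in wild-type ileum, against 51730 in G181R jejunum and 69631 in wild-type jejunum, so its level was low in both arrays labelled ileum. Wild-type ileum stood apart in muscle RNA: the 7 smooth muscle markers summed to a signal of 7231 in G181R ileum, 17351 in wild-type ileum, 8244.5 in G181R jejunum and 7368 in wild-type jejunum.

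Across the 4 arrays, 43 of the 50 measured members had the same order: highest in G181R ileum, then wild-type ileum, then G181R jejunum, and lowest in wild-type jejunum. Of all 20418 genes measured on all arrays, 17.2% had that order. The 7 members with another order were Mcm10, Cdt1, Pcna, Cdkn1a, Kif11, Kif23 and Cdc45. Both steps of this order, genotype and tissue, are described in turn.

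**Figure D2:**
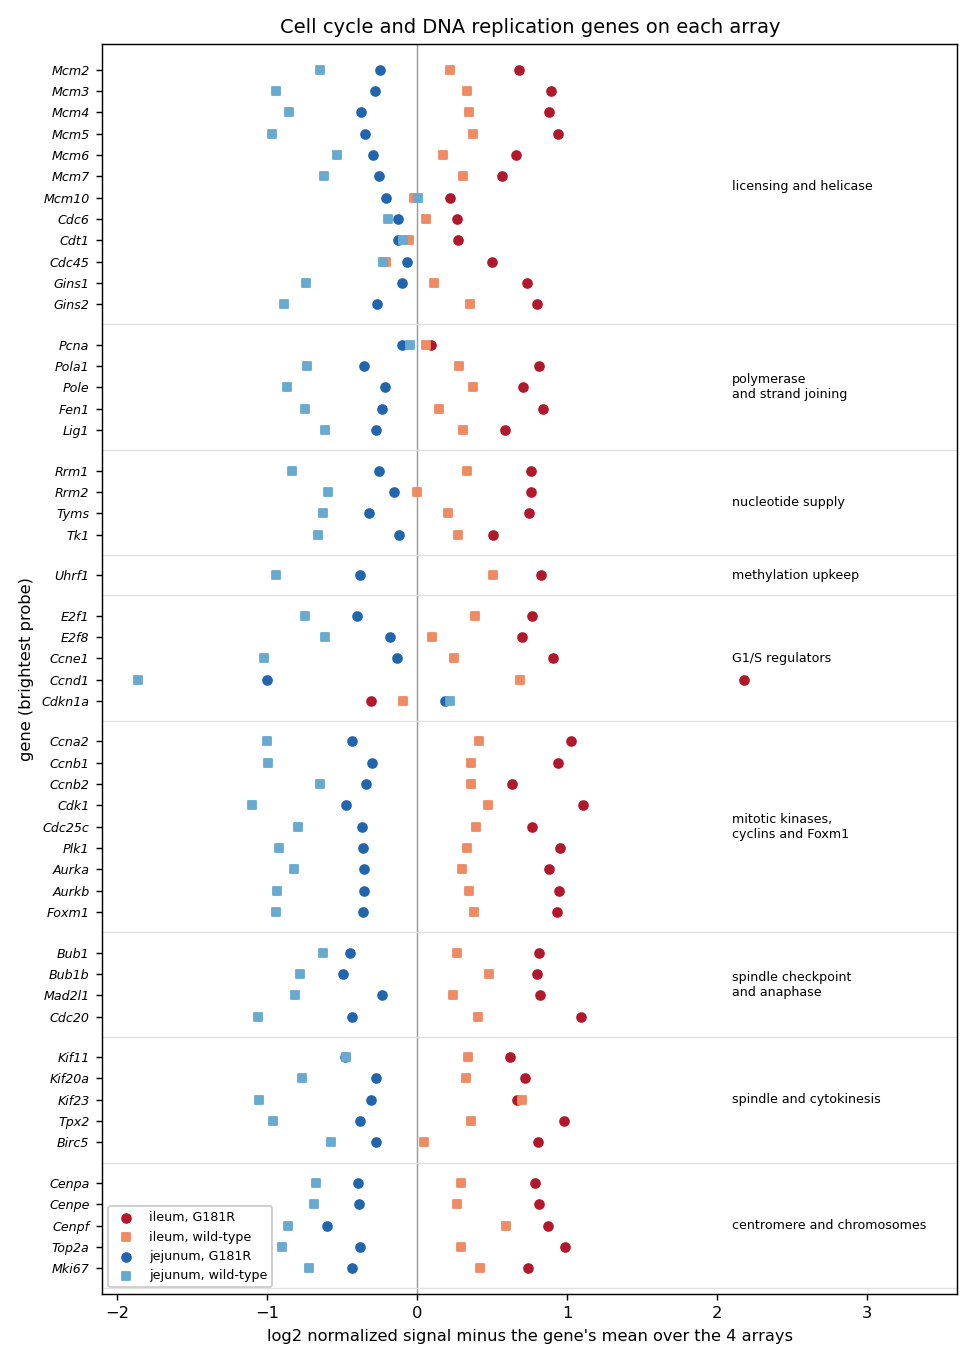
Each row is a gene and each point an array; the horizontal axis is the log2 normalized signal minus the mean of that gene over the 4 arrays, and genes are grouped by role. Most rows run, right to left, in the order G181R ileum, wild-type ileum, G181R jejunum and wild-type jejunum, Ccnd1 spans the widest range, and Pcna, Mcm10, Cdt1 and Cdkn1a are narrow.

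The genotype comparisons asked whether genes of dividing cells differed between G181R and wild-type within a tissue. In the ileum, 48 of 50 members were higher in G181R, where 53.3% of all 21477 measured genes were higher. Their median log2 difference was 0.53, against 0.03 for all genes. At least 1.5-fold higher were 15 members (6.81% of all genes), and 1 member, Ccnd1, was at least 2-fold higher (2.01% of all genes). No member was 1.5-fold or 2-fold lower in ileum, where 8.65% and 3.21% of all genes were. In the jejunum, 45 of 50 members were higher in G181R, where 48.4% of all 21225 genes were higher, and the median was 0.45 against -0.01 for all genes. No member reached 2-fold (0.763% of all genes were at least 2-fold higher and 0.749% lower). At least 1.5-fold higher were 11 members, against 3.4% of all genes, and 0 members were 1.5-fold lower (4.09% of all genes). Higher in both tissues were 44 members, where 35.6% of the 20418 genes measured on all arrays were. By more than 3 SD of the spots in each tissue, which is 0.17, 42 members were higher in both (14.7% of all genes), and 5 were at least 1.5-fold higher in both (1.67%). Normexp background correction, which draws dim signals towards each other, left 7 members at least 1.5-fold higher in ileum (2.82% of all genes under it) and 4 in jejunum (1.06%), with medians of 0.44 and 0.34.

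Among the G1/S regulators, the cyclins Ccnd1 and Ccne1 had the largest genotype differences. Ccnd1, which encodes cyclin D1, the partner of CDK4 and CDK6, had signals of 5807.3 in G181R ileum, 2173.4 in wild-type ileum, 585.2 in G181R jejunum and 315.3 in wild-type jejunum. The G181R array was the higher one in each tissue, by 2.82-fold in ileum (log2 1.496) and 1.81-fold in jejunum (0.86), and both ileum arrays lay above both jejunum arrays. Counted from the highest signed difference, Ccnd1 ranked 186 of 21477 genes in ileum and 258 of 21225 in jejunum. It rested on a single probe, on chromosome 7 at 152116202 to 152116261 (mm9, minus strand). Ccne1, which encodes cyclin E1, the partner of CDK2, had signals of 380.6 in G181R ileum, 253.9 in wild-type ileum, 168.5 in G181R jejunum and 89.1 in wild-type jejunum. Ccne1 differed by 0.66 in ileum and by 0.89 in jejunum (rank 232 from the highest), the largest difference of a member there. Its single probe lies on chromosome 7 at 38882937 to 38882960 (mm9, minus strand), a stretch shorter than the usual probe.

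The other G1/S regulators differed less. E2f1, an activator of replication genes, had signals of 104.8 in G181R ileum and 85.3 in wild-type ileum, a difference of 0.38, and of 42.6 in G181R jejunum and 32.9 in wild-type jejunum, a difference of 0.34. E2f8, an E2F that represses the same genes later in S phase, differed by 0.60 in ileum and 0.43 in jejunum. Cdkn1a, which encodes the CDK inhibitor p21, went the other way. Its signals were 2138.1 in G181R ileum, 2613.1 in wild-type ileum, 2742.9 in G181R jejunum and 2751.7 in wild-type jejunum. The difference was -0.21 in ileum, beyond the spread of the spots, and -0.04 in jejunum, within it. A dimmer Cdkn1a probe gave -0.44 in ileum and -0.13 in jejunum.

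Licensing and helicase genes build the complex that opens DNA. All 6 subunits of the MCM2-7 helicase were higher in G181R in both tissues, by 0.26 (Mcm7) to 0.56 (Mcm5) in ileum and by 0.24 (Mcm6) to 0.66 (Mcm3) in jejunum. Mcm3 had signals of 1524.1 in G181R ileum, 1091.7 in wild-type ileum, 619.2 in G181R jejunum and 382.6 in wild-type jejunum. Its 4 probes gave differences between 0.50 and 0.66 in ileum and between 0.55 and 0.67 in jejunum. Mcm5, one of the members with E2F words shown above, had signals of 663.9 in G181R ileum, 474.4 in wild-type ileum, 248.6 in G181R jejunum and 158.3 in wild-type jejunum. Gins1 and Gins2, subunits of the complex that activates the helicase, differed by 0.62 and 0.44 in ileum and by 0.64 and 0.62 in jejunum.

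Loading factors and other helicase partners were less uniform, and in jejunum Mcm10, Cdt1, Cdc6 and Cdc45 lay below all 6 MCM2-7 subunits at their brightest probes. Mcm10, which joins the active helicase, had signals of 988.9 in G181R ileum and 883.3 in wild-type ileum (0.24), and of 669.7 in G181R jejunum and 760.6 in wild-type jejunum (-0.22). Its sign was therefore opposite in the 2 tissues, and the difference between them was not tested. Its other probe gave 0.08 and -0.07. Cdt1, which loads the helicase in G1, had signals of 1585.6 in G181R ileum, 1335.1 in wild-type ileum, 1095.2 in G181R jejunum and 1097.4 in wild-type jejunum. It was higher in G181R in ileum (0.33) and level in jejunum (-0.04). Cdc6, the partner of Cdt1 and a gene with an upstream E2F word, had signals of 124.1 in G181R ileum, 113.3 in wild-type ileum, 86.0 in G181R jejunum and 80.2 in wild-type jejunum. The differences of Cdc6 were 0.21 in ileum and 0.07 in jejunum. Cdc45, a part of the active helicase, had signals of 26.4 in G181R ileum, 17.1 in wild-type ileum, 16.3 in G181R jejunum and 14.2 in wild-type jejunum. These lay near background, and its ileal difference of 0.70 was 0.24 with normexp.

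Polymerases, strand-joining enzymes and nucleotide supply were mostly higher in G181R, with Pcna as the exception. Pcna, the sliding clamp that holds polymerases on DNA, had signals of 3180.5 in G181R ileum, 3290.5 in wild-type ileum, 2539.2 in G181R jejunum and 2583.8 in wild-type jejunum. The genotypes were level, with differences of 0.03 in ileum and -0.06 in jejunum, both within 3 SD of the spots. Its probe lies on chromosome 2 at 132075420 to 132075557 (mm9, minus strand). Pole, the catalytic subunit of the leading-strand polymerase, had signals of 381.0 in G181R ileum, 319.1 in wild-type ileum, 183.5 in G181R jejunum and 113.9 in wild-type jejunum, with differences of 0.33 in ileum and 0.65 in jejunum. Fen1, which trims the ends of lagging-strand fragments, differed by 0.69 in ileum and 0.51 in jejunum, and Lig1, which seals them, by 0.28 and 0.34. Rrm2, the regulated subunit of ribonucleotide reductase, had signals of 1151.5 in G181R ileum, 719.2 in wild-type ileum, 557.5 in G181R jejunum and 401.6 in wild-type jejunum. At 0.76 it had the largest difference of the replication genes in ileum, with 0.44 in jejunum. Rrm1, Tyms and Tk1, the other enzymes of nucleotide supply, differed by 0.23 to 0.55 in ileum and by 0.30 to 0.58 in jejunum. Uhrf1, which keeps DNA methylation through replication, differed by 0.32 in ileum and 0.56 in jejunum.

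Mitotic kinases, cyclins and Foxm1 were all higher in G181R. The 9 genes differed by 0.27 to 0.63 in ileum (median 0.58) and by 0.31 to 0.69 in jejunum (median 0.56). Ccnb1, which encodes cyclin B1, had signals of 897.7 in G181R ileum, 636.3 in wild-type ileum, 346.6 in G181R jejunum and 210.2 in wild-type jejunum. Its 4 probes gave 0.27 to 0.64 in ileum and 0.43 to 0.78 in jejunum. Cdk1, the kinase that cyclin B1 activates, had signals of 189.7 in G181R ileum, 129.0 in wild-type ileum, 57.8 in G181R jejunum and 36.6 in wild-type jejunum. The Cdk1 difference was 0.63 in each tissue. Ccnb2, the other B-type cyclin, had signals of 1860.1 in G181R ileum, 1626.4 in wild-type ileum, 866.7 in G181R jejunum and 684.1 in wild-type jejunum, and was the least different of the 9 in both tissues (0.27 in ileum and 0.31 in jejunum). Foxm1, a transcription factor of G2 genes, differed by 0.56 in ileum and 0.58 in jejunum at its bright probe. Its other probes lay near background, and the mean over all 3 was 0.38 in ileum and -0.66 in jejunum.

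Checkpoint, spindle and chromosome genes were higher in G181R as well at their brightest probes, with the exceptions of Kif23 in ileum and Kif11 in jejunum. Cenpf, a centromere gene, differed by 0.28 in ileum and 0.26 in jejunum. Its dimmer probe gave -0.07 and 0.13, so its probes disagreed in ileum. Cdc20, which activates the anaphase-promoting complex, had signals of 2374.5 in G181R ileum, 1561.3 in wild-type ileum, 754.7 in G181R jejunum and 476.1 in wild-type jejunum, with differences of 0.68 in ileum and 0.63 in jejunum. Bub1, a checkpoint kinase, had signals of 205.3 in G181R ileum, 148.1 in wild-type ileum, 78.3 in G181R jejunum and 67.6 in wild-type jejunum. Bub1 differed by 0.55 in ileum and by 0.18 in jejunum, where the mean of all its probes was -0.13. That mean takes in a probe that was not well above background on any array. Birc5, which encodes survivin of the chromosomal passenger complex, had signals of 7125.3 in G181R ileum, 4443.1 in wild-type ileum, 3071.8 in G181R jejunum and 2444.7 in wild-type jejunum. Birc5 had the largest ileal difference of the mitosis genes, 0.76, with 0.30 in jejunum.

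Top2a, the topoisomerase that untangles chromosomes, had signals of 1873.8 in G181R ileum, 1224.4 in wild-type ileum, 662.4 in G181R jejunum and 452.4 in wild-type jejunum. It differed by 0.69 in ileum and 0.52 in jejunum. Mki67, which encodes the proliferation marker Ki-67, had signals of 3406.8 in G181R ileum, 2882.0 in wild-type ileum, 1380.5 in G181R jejunum and 1105.7 in wild-type jejunum. Mki67 was thus higher in G181R in both tissues, but by less than the median member (0.32 in ileum and 0.29 in jejunum). Kif11, the motor that separates spindle poles, had signals of 107.1 in G181R ileum and 93.0 in wild-type ileum (0.28), and of 45.6 in G181R jejunum and 44.8 in wild-type jejunum (-0.01).

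Kif23, a kinesin of cytokinesis, had signals of 199.5 in G181R ileum and 214.8 in wild-type ileum (-0.03), and of 92.5 in G181R jejunum and 53.8 in wild-type jejunum (0.75). It was within the spread of the spots in ileum and had the largest jejunal difference of the mitosis genes. Another bright probe gave 0.05 in ileum and 0.64 in jejunum, and a dimmer one 0.17 and -0.15, so its probes disagreed in jejunum. Over all members, 21 had more than 1 probe well above background on all 4 arrays. In 18 of them every such probe was higher in G181R in ileum, and in 17 in jejunum, with a median range between the probes of a gene of 0.17 and 0.18.

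**Figure D3:**
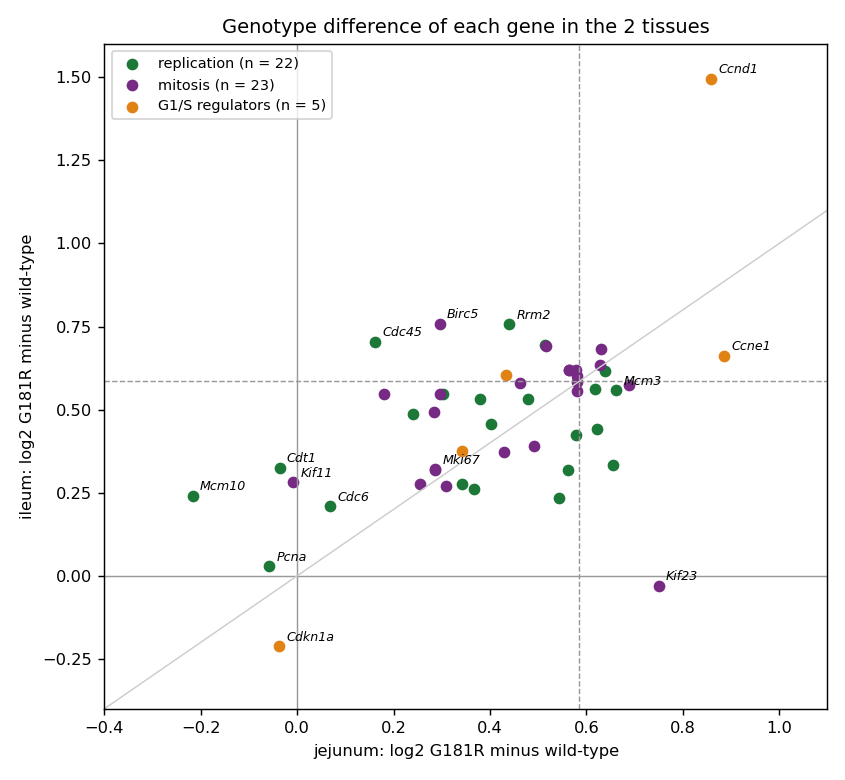
Each point is a gene, with its log2 difference between G181R and wild-type in jejunum on the horizontal axis and in ileum on the vertical axis; dashed lines mark 1.5-fold and the grey diagonal equal differences. Of the 50 genes, 44 lie above 0 on both axes, Ccnd1 lies highest at 1.496, and Cdkn1a, Pcna, Mcm10, Cdt1, Kif11 and Kif23 lie near or across a zero line.

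Replication and mitosis genes were both higher in G181R in the 2 tissues. In ileum, 22 of 22 replication genes were higher in G181R with a median of 0.45, and 22 of 23 mitosis genes with a median of 0.56. In jejunum, 19 of 22 replication genes were higher with a median of 0.42, and 22 of 23 mitosis genes with a median of 0.49. The median of the mitosis genes was the higher one by 0.11 in ileum and 0.07 in jejunum, a gap with no test. The SD among single genes was 0.19 for each class in ileum, and 0.25 for replication and 0.19 for mitosis genes in jejunum. The jejunal gap was -0.03 with normexp and -0.02 with the mean of all probes of a gene, so no order of the classes held there.

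The size of the genotype difference was close in the 2 tissues. The difference of differences, ileum minus jejunum, had a median of 0.04 over the members, with 32 of 50 above 0, where 51.9% of all 20418 genes measured on all arrays were above 0. By at least 1.5-fold, 1 member was higher (5.53% of all genes) and 1 lower (6.39%). By at least 2-fold, 0 members were higher (1.75% of all genes) and 0 lower (2.07%). Ccnd1 had the highest value (0.64), followed by Cdc45 (0.54) and Birc5 (0.46), and Kif23 the lowest (-0.78). Across the 50 members, which share arrays and labelling, the ileal and jejunal differences had a Pearson r of 0.51 (0.46 without Ccnd1), close to 0.49 across all genes. None of these had a test, with 1 array per group.

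Between tissues, the question was whether the same genes differed between ileum and jejunum. The members differed more between tissues than between genotypes. In G181R mice, 49 of 50 members were higher in ileum, with a median of 1.09, where 47.9% of all 21474 genes were higher. At least 2-fold higher were 32 members, against 7.29% of all genes, and at least 1.5-fold higher were 44, against 16.1%. In wild-type mice, 48 of 50 were higher in ileum (46.6% of all 20751 genes), with a median of 1.11. At least 2-fold higher were 29 members (7.4% of all genes) and at least 1.5-fold higher were 44 (15.8%). The exceptions were Cdkn1a in both genotypes (-0.49 in G181R and -0.32 in wild-type) and Mcm10 in wild-type (-0.03). In wild-type both depended on the probe. A dimmer Cdkn1a probe gave -0.16 in G181R and 0.16 in wild-type, and the other Mcm10 probe 0.50 and 0.35. At least 2-fold higher in both genotypes were 25 members (5.02% of all genes), and 0 members were 2-fold lower in either, where 8.73% of all genes were in G181R and 9.12% in wild-type. With normexp, 21 members were at least 2-fold higher in G181R (3.56% of all genes under it) and 16 in wild-type (3.76%), with medians of 0.95 and 0.89.

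By tissue, Ccnd1 again differed most, 9.05-fold higher in ileum in G181R mice (log2 3.18) and 5.82-fold in wild-type mice (2.54). Cdk1 was 2.99-fold higher in G181R and 2.98-fold in wild-type, and Cdc20 2.87-fold and 2.77-fold. Ccna2, which encodes the cyclin A of S and G2 phase, was 2.75-fold and 2.65-fold higher, and Mki67 2.25-fold and 2.20-fold. Kif23 was at 0.98 in G181R and 1.75 in wild-type, and the dimmer probe of it gave -0.05 and -0.38. In wild-type mice, Cdc45 at 0.02, Cdt1 at 0.04 and the clamp Pcna at 0.10 were within 3 SD of the spots, and Cdc6 was at 0.25 (its other probe at 0.40). In G181R mice these genes were at 0.56, 0.40, 0.19 and 0.40. Cdc45 lay near background, another probe of it gave 1.95 in wild-type, and its value there ranged between -0.08 and 0.99 over the alternatives. The MCM2-7 genes, by contrast, lay between 0.71 (Mcm6) and 1.34 (Mcm5) in wild-type mice and between 0.82 (Mcm7) and 1.28 (Mcm5) in G181R mice.

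Mitosis genes had higher medians than replication genes between tissues, again with no test. Of 23 mitosis genes, 20 were at least 2-fold higher in ileum in G181R mice and 18 in wild-type mice, against 9 and 8 of 22 replication genes. The medians were 1.24 for mitosis and 0.92 for replication genes in G181R, and 1.19 and 0.90 in wild-type, gaps of 0.32 and 0.29. Every mitosis gene was at least 1.5-fold higher in ileum in both genotypes, and 17 of 22 replication genes were in each genotype. The SD among mitosis genes was 0.17 in G181R and 0.26 in wild-type, against 0.31 and 0.46 among replication genes. Among roles with more than 1 gene, the median ran highest for mitotic kinases, cyclins and Foxm1 (1.30 in G181R and 1.28 in wild-type) and lowest in wild-type for the licensing and helicase genes (0.86, with 0.88 in G181R). The gap kept its direction in all alternatives and narrowed to 0.17 in G181R and 0.11 in wild-type with normexp. Tissue and genotype comparisons share the same 4 arrays and are not independent.

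**Figure D4:**
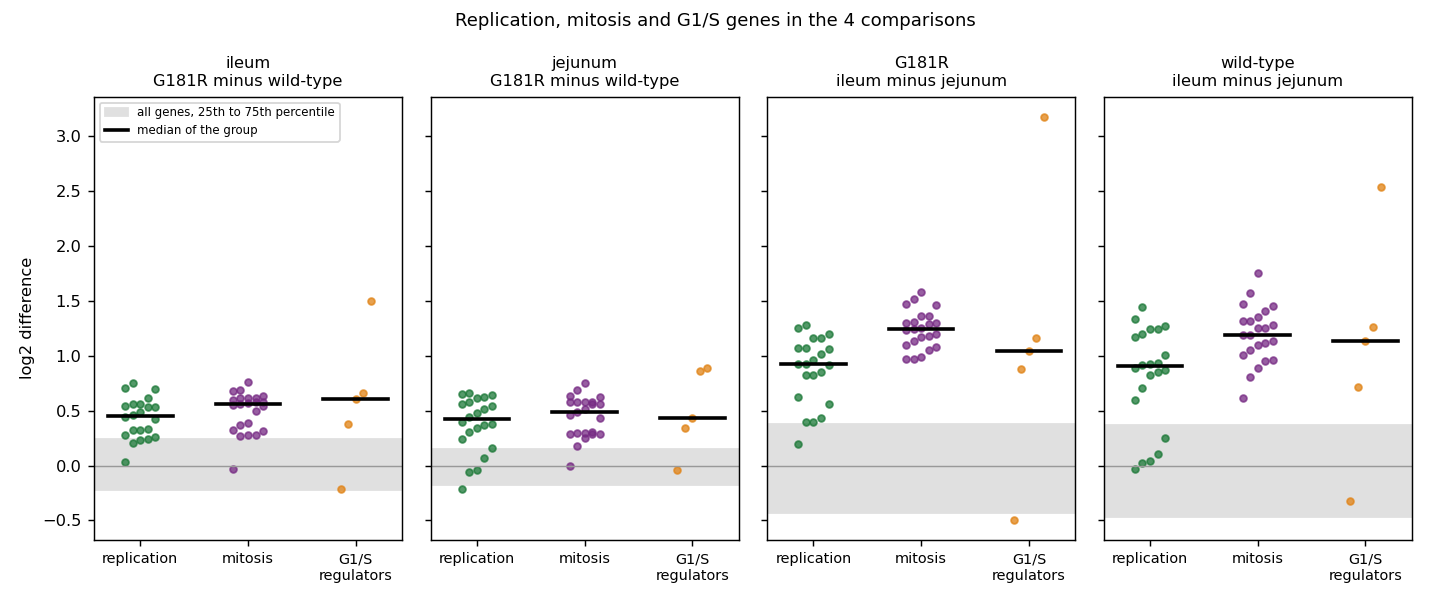
Log2 differences (vertical axis) of the replication genes, the mitosis genes and the G1/S regulators in the 4 comparisons; each point is a gene, the black line is the median of its group, and the grey band is the middle of all genes, between the 25th and 75th percentile. Medians of replication and mitosis genes are 0.45 and 0.56 in ileum and 0.42 and 0.49 in jejunum between genotypes, and 0.92 and 1.24 between tissues in G181R mice.

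Genes of the same pathways outside the 51 gave a wider view. Of 35 other replication genes, 30 were higher in G181R in ileum (median 0.39) and 31 in jejunum (0.24). Rfc5, a subunit of the clamp loader, was highest in both (1.54 in ileum and 1.96 in jejunum), but its other probes gave 0.42 and 0.22 in ileum and 0.09 and 0.11 in jejunum. Orc1, of the origin recognition complex, was next in ileum (0.77, and 0.76 in jejunum), with the exonuclease Exo1 at 0.72 in ileum and the kinase Cdc7 at 0.76 in jejunum. At the other end, Pola2, a subunit of the priming polymerase, was at -0.14 in ileum and -0.41 in jejunum, Pole2 at -0.26 in ileum and -0.15 in jejunum, Rfc2 at -0.14 in ileum and Rpa2 at -0.19 in jejunum. Of 54 other mitosis genes, 52 were higher in G181R in ileum (median 0.38) and 49 in jejunum (0.39). Sgol2a, which guards cohesin at centromeres, was highest (1.33 in ileum and 0.87 in jejunum), followed by Cks1b (0.83) and Melk (0.81) in ileum and by Kif18b (0.78) and Melk (0.77) in jejunum. Pttg1, which encodes securin, was lowest in both (-0.31 in ileum and -0.21 in jejunum), with Depdc1a (-0.09) and Ect2 (0.10) next in ileum and Kif2c (-0.18) and Depdc1a (-0.16) in jejunum. Another Pttg1 probe gave -0.62 in ileum and -0.28 in jejunum.

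Cyclins, inhibitors and transcription regulators outside the 51 did not move as a block. In ileum 15 of 27 were higher in G181R (median 0.07), and in jejunum 19 of 26 (0.16). Mybl2, which encodes B-MYB, had signals of 929.1 in G181R ileum, 390.0 in wild-type ileum, 270.5 in G181R jejunum and 198.6 in wild-type jejunum, and was the highest in ileum (1.33, with 0.41 in jejunum). E2f7 (0.61) and E2f2 (0.47) followed in ileum. Cdk2, the kinase of cyclins E and A, was level in ileum (0.08) and highest in jejunum (0.96), where Myc (0.61) and Cdkn2b (0.46) came after it. Myc had another probe at -0.15 in jejunum. Mycn (-1.34), the pocket protein Rbl2 (-0.74) and the kinase Cdk6 (-0.46) were lowest in ileum, and the inhibitor Cdkn1c (-0.64), Rbl2 (-0.40) and the inhibitor Cdkn1b (-0.27) in jejunum.

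Targets of p53 other than Cdkn1a were lower in G181R in 15 of 17 genes in each tissue, with medians of -0.25 in ileum and -0.14 in jejunum. Sesn1, a stress-induced inhibitor of mTORC1, had signals of 816.9 in G181R ileum and 2397.1 in wild-type ileum (-1.48), and of 1659.7 in G181R jejunum and 2700.5 in wild-type jejunum (-0.74). At the brightest probes, Trp53inp1 was lowest in ileum (-1.59, with -0.61 in jejunum) and Phlda3 was at -1.11 in ileum. Bbc3, which encodes the death factor PUMA, was lowest in jejunum (-0.77). Another Trp53inp1 probe gave -0.75 in ileum and -0.79 in jejunum. Gdf15 was the highest in both tissues (0.65 in ileum and 0.17 in jejunum), followed by Bax (0.05) in ileum and Ccng1 (0.12) in jejunum, with Perp (0.00) in ileum and Polk (-0.01) in jejunum after them.

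Markers of the cells in the samples moved with genotype and tissue, and their part in the values above was not tested. The 7 epithelium markers had a median of -0.06 in ileum (0 of 7 higher in G181R) and -0.01 in jejunum (3 of 7), and they summed to a signal of 223260 in G181R ileum, 246870 in wild-type ileum, 168790 in G181R jejunum and 171950 in wild-type jejunum. Villus enterocyte markers were lower in G181R in 8 of 10 genes in each tissue, with medians of -0.32 in ileum and -0.14 in jejunum. Crypt base stem cell markers were higher in G181R in 2 of 8 genes in ileum (median -0.13) and in 7 of 8 in jejunum (0.27). Their signals summed to 11781 in G181R ileum, 12539 in wild-type ileum, 5375.4 in G181R jejunum and 4832.1 in wild-type jejunum. Lgr5, the receptor that defines these stem cells, was lower in G181R in ileum (-0.18) and level in jejunum (0.03). Between tissues the stem cell list was higher in ileum by a median of 0.84 in G181R and 1.21 in wild-type mice, next to 1.09 and 1.11 for the 50 members. The villus enterocyte list was lower in ileum in 9 of 10 genes in each genotype, with medians of -1.73 in G181R and -1.18 in wild-type mice. Epithelium markers were higher in ileum in 6 of 7 genes in each genotype, with medians of 0.35 and 0.33. Paneth cell markers had medians of 0.08 in ileum and 0.48 in jejunum between genotypes, and of 2.45 in G181R and 2.73 in wild-type mice between tissues. In bulk RNA, more dividing cells and more RNA of these genes per dividing cell cannot be told apart.

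Dividing lymphocytes express the same genes, so B cell and germinal centre markers were read beside them. In ileum 6 of 10 measured markers were higher in G181R (median 0.38), and in jejunum 0 of 7 were (-0.65). They summed to a signal of 2863.9 in G181R ileum, 2439.8 in wild-type ileum, 1725.5 in G181R jejunum and 1950.2 in wild-type jejunum. Between tissues, 6 of 9 markers were higher in ileum in G181R mice (median 1.93) and 4 of 7 in wild-type mice (1.57). The 50 members had medians of 1.09 and 1.11 there, and the part of B cells in them was not tested. Of the 12 listed B cell and germinal centre markers, 10 were well above background on each ileum array, 9 in G181R jejunum and 7 in wild-type jejunum. All 12 had a probe on the arrays, and Gcsam, a germinal centre B cell gene, was not well above background on any of them. Markers of T cells had medians of -0.02 in ileum and -0.37 in jejunum, and those of macrophages and neutrophils 0.28 and 0.03.

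The smooth muscle markers were lower in G181R ileum in 7 of 7 genes, with a median of -2.37, while in jejunum the median was 0.12. Fibroblast and endothelium markers had medians of -0.42 in ileum and -0.22 in jejunum, and red cell markers -0.72 and -0.42. The ileal genotype differences of the members rest on the wild-type ileum array with the high muscle signal, and the part of that signal in them was not tested. That array also enters the comparison of tissues in wild-type mice. There the muscle markers were higher in ileum in 7 of 7 genes (median 1.47), against 1 of 7 in G181R mice (-0.86). The part of muscle RNA in the tissue differences was not tested either. Between genotypes, the members had a median of 0.53 in ileum and of 0.45 in jejunum, and the part of other cells in either was not tested.

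**Figure D5:**
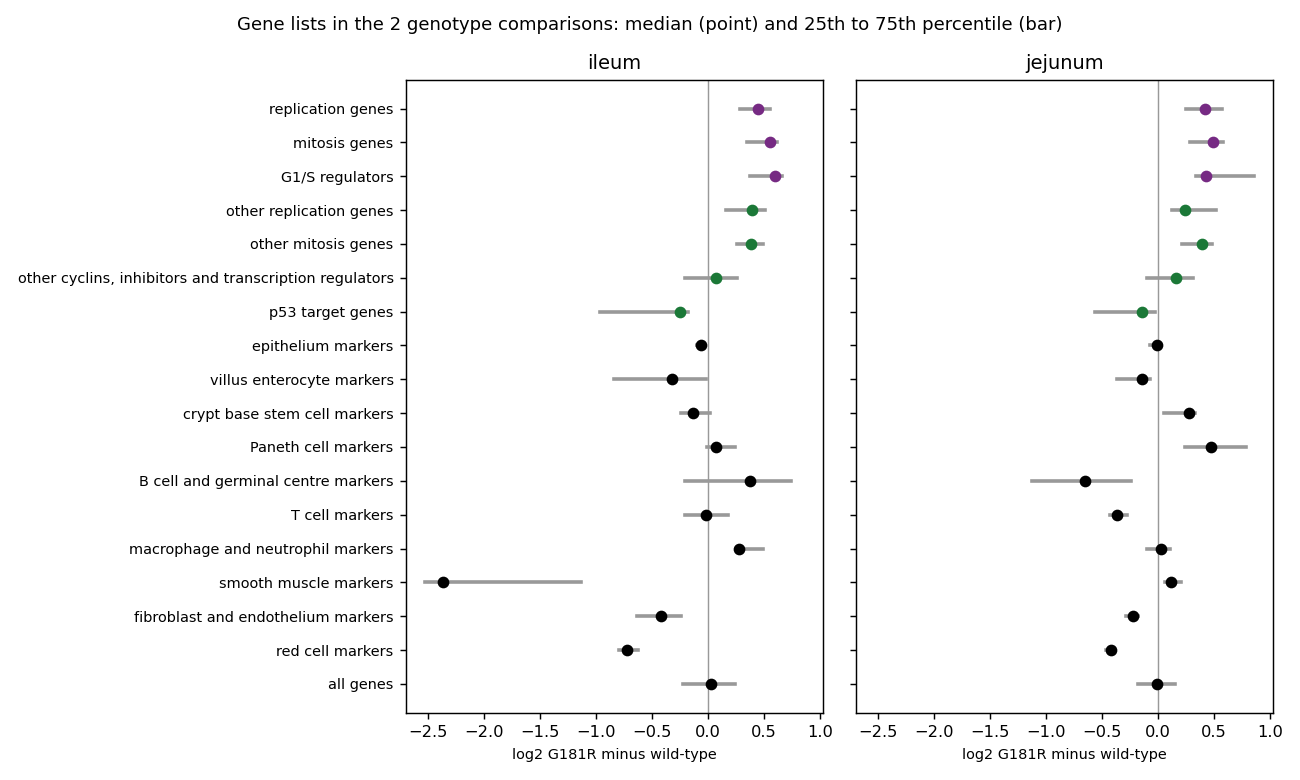
Median (point) and 25th to 75th percentile (bar) of the log2 difference between G181R and wild-type for the 3 groups of members, the other pathway lists and the cell type marker lists, in ileum and jejunum, with all genes at the bottom. The replication, mitosis and other replication and mitosis lists lie above 0 in both tissues, the p53 targets and villus markers below 0, and smooth muscle markers at -2.37 in ileum.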

How the data were processed

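RNA of 4 groups was measured on 1 array each. The intensity values in the scanner files were made, per the file headers, in Agilent Feature Extraction by subtracting background and removing trends within an array; version 11.5.1.1 is given by the submitters' processing notes. Other columns, flags of 0 or 1 per spot, mark per the file headers whether a spot was well above background, saturated or an outlier. The deposited table holds log2 values equal to the log2 processed signal minus 1 constant per array (between 7.28 and 7.52) within 0.01 for 95.8% of 56605 probes, with column medians of -3.13 in G181R ileum, -3.09 in wild-type ileum, -3.08 in G181R jejunum and -3.08 in wild-type jejunum. There 2356 probes hold 1 fill value per array, so the table served only as an alternative.

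Log2 processed signals were averaged over spots without outlier flags, and the 75th percentile over non-control probes of the array was subtracted. A gene was its brightest probe, and it counted as measured when well above background on both arrays compared. Folds of 2 and 1.5 were counted, with no p-value, since each group had 1 array. The counting recovered differences planted in simulated data with little noise, which checks the code only. It covers neither dim probes nor mice nor pools. Arrays shared 1 slide. The members and the gene lists were chosen with earlier results of these data known. Any member could be named. Signals on all arrays are given for the 2 highest and 2 lowest of each class by the genotype difference in each tissue and for Pcna, Mki67, Ccnd1 and Cdkn1a; other members given in full were chosen after their values were seen. Of each pathway list, the 3 highest and 3 lowest genes of each tissue are named. Alternatives were other centring, quantile normalization and normexp (limma 3.58.1, R 4.3.3), means of probes, other filters on dim probes, updated gene names and the deposited table. Python 3.11.15 with pandas 2.3.3 was used for the rest. Positions of probes are mm9, per the file headers, and the exon or UTR they lie in was not annotated here.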

Additional observations from a re-analysis of the deposited data

Results flagged for a closer look

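Mcm10, which joins the active replication helicase, had genotype differences of opposite sign in the 2 tissues, each beyond 3 SD of the repeated spots. That limit uses the median SD, 0.06, and the 95th percentile of the SD was 0.12 in ileum and 0.11 in jejunum. G181R minus wild-type was 0.24 on the log2 scale in ileum and -0.22 in jejunum. Its other probe gave 0.08 and -0.07. The difference between the tissues was not tested, as each value compares 1 array with 1 array. Other members with opposite signs (Pcna, Cdt1, Kif11 and Kif23) were within the spread of the spots in at least 1 tissue.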

How the results depend on the processing

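With 1 array per group, no setting could add a test, and a probe near background, that of Cdc45, moved to 0.24 in ileum with another background correction. Each value was recomputed under 9 alternatives that process the signals. The median of the members stayed above 0 in all 4 comparisons under every alternative. Normexp background correction moved it to 0.44 in ileum and 0.34 in jejunum between genotypes, and to 0.95 in G181R and 0.89 in wild-type between tissues. It left 7 members at 1.5-fold in ileum and 4 in jejunum, and 21 at 2-fold in G181R and 16 in wild-type between tissues. Under it the mitosis minus replication gap was -0.0302 in jejunum, 0.172 between tissues in G181R and 0.106 in wild-type. With the mean of all probes of a gene the gap was 0.0470 in ileum, -0.0158 in jejunum and 0.224 between tissues in G181R, and the member median was 0.47 in ileum and 1.03 between tissues in wild-type. Foxm1 then stood at -0.14 between tissues in wild-type mice, a mean that takes in probes near background. With the mean of probes well above background on all arrays, the jejunal gap was 0.0048. A promoter window of 150 bases, between 100 before and 50 after the start, held E2F words in 4 replication and 0 mitosis genes. A fold of 1.5 in place of 2 counted 15 members in ileum, 11 in jejunum, and 44 in each genotype between tissues. Of 1779 single member values under alternatives, 275 moved by more than the SD of the spots and 15 had the opposite sign, in 8 members. Between genotypes, Foxm1 (-0.66) and Bub1 (-0.13) in jejunum were below 0 with the mean of all probes. Cenpf in ileum was at -0.07 with the deposited values, from which filled probes were left out. Its dimmer probe had that same value in the scanner files, where its brightest probe gave 0.28. The means of Foxm1 and Bub1 take in probes near background. The sign changes of Mcm10, Kif23, Cdc6, Cdt1 and Cdc45 were of values within 3 SD of the spots of 0. Of 180 medians of the pathway lists, 27 moved and 0 reversed. The causes of these shifts were not tested. The slide as a block was not run, because each array is a group of its own. No paired analysis was possible because each group has 1 array and the labels give no replicate numbers.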
